A study of Mus musculus with 8 samples.

Results

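Fatty acid uptake and oxidation in the mouse myocardium was followed through 40 genes, chosen by name from a list of enzymes, carriers and regulators, of the 33249 genes in the deposited table. All 40 averaged at least 0.5 FPKM over the 8 libraries and were tested, among 14028 genes that passed this filter. The members were sorted by role into 6 genes of release and uptake of fatty acids, 2 of stored triglyceride, 6 of the carnitine shuttle and its brake, 9 of the beta-oxidation spiral, 3 auxiliary enzymes for unsaturated fatty acids, 3 of electron transfer to ubiquinone, 5 acyl-CoA thioesterases, uncoupling protein and pyruvate dehydrogenase kinase genes, and 6 transcription factors and coactivators. Poly(A) RNA of the myocardium was sequenced in 4 groups of 2 libraries, labelled fl/fl-Sham, fl/fl-MI, CKO-Sham and CKO-MI. Every animal carried floxed Piezo1 alleles. CKO stands for Piezo1 Cko, in which Myh6-MerCreMer, a Cre recombinase fused to parts of the estrogen receptor and driven by the cardiomyocyte promoter of Myh6, deletes Piezo1 after tamoxifen, and fl/fl stands for littermates without this transgene, whose genotype the labels also give as WT. Tamoxifen was given at 4 weeks of age in the induced animals and surgery was done at 8 weeks. MI was a lasting ligature on the left anterior descending artery with tissue taken at day 42, and Sham was the same operation without the ligature. Since Cre acts in cardiomyocytes, other cells of the tissue keep Piezo1. The labels do not say how many animals stand behind a library, so p-values measure the spread between these libraries.

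The adult heart draws most of its energy from long-chain fatty acids. They are freed from circulating triglyceride by lipoprotein lipase, taken up through CD36 and other carriers, activated to acyl-CoA, and passed across the inner mitochondrial membrane as carnitine esters. Inside, each turn of the beta-oxidation spiral removes an acetyl unit through a dehydrogenation, a hydration, a further dehydrogenation and a thiolysis, and the electrons of the flavin-linked step reach ubiquinone through the electron transfer flavoprotein. Many of these genes are known targets of the nuclear receptor PPARα and of the estrogen-related receptors with their coactivators PGC-1α and PGC-1β. A shift from fatty acids to glucose is a known feature of the failing heart.

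The deposited counts summed to 73821747 to 88117573 per library. Low counts piled up at multiples of 4, so a count is not a read pair. Levels are given below as CPM, counts scaled to a common normalized library size, and levels of different genes are compared as FPKM, the authors' value per kilobase. The sham libraries gave 43.1% to 46.4% of their counts to mitochondrially encoded genes, and the MI libraries 19.9% to 24.2%. Of the remaining counts, the 40 genes held 1.54% to 1.89% in the sham libraries, 1.06% in fl/fl-MI 1 as labelled and 1.62% to 1.72% in the other MI libraries. Piezo1, the targeted gene, had 76.7 and 88.3 CPM in CKO-Sham against 72.2 and 81.98 in fl/fl-Sham, and 56.3 and 64.6 in CKO-MI against 53.5 and 64.8 in fl/fl-MI, and so was not lower in the libraries labelled CKO. Esr1, part of the Cre transgene, was at 5.52 to 8.36 CPM in all sham libraries, those labelled CKO-Sham included, as well as in fl/fl-MI 1, and at 331 CPM in fl/fl-MI 2, 707 in CKO-MI 1 and 402 in CKO-MI 2. These levels go against the genotype labels of fl/fl-MI 2 and of both CKO-Sham libraries. Genotype directions below are therefore those of the libraries as labelled, and averaging both genotypes averages the labelled groups. Esr1 was high only among MI libraries. Apart from fl/fl-MI 1, MI against sham is thus also a comparison of high with low Esr1. The part of the transgene in the changes after MI was not tested. Acadvl, Acsl1, Crat, Echs1, Eci2, Esrra, Etfdh, Fabp3 and Hadha share exon sequence with genes on the opposite strand, and whether counting used the strand is not given in the sources used here.

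Markers of other cell types differed between MI and sham. A gene is said to have risen, fallen or been called where its adjusted p was under 0.05. The summed level of 10 fibroblast and matrix genes was 1560.0 to 1739 CPM in sham and 2462 to 7234 CPM in MI, and 9 of the 10 rose. The sum of 10 endothelial markers was 2185 to 2581 CPM in sham and 762 to 1224 CPM in MI, and 9 of the 10 fell. The 14 sarcomere genes that mark cardiomyocytes summed to 41873 to 46414 CPM in sham, to 27947 and 30647 CPM in fl/fl-MI 1 and CKO-MI 2 as labelled, and to 47124 and 48886 CPM in fl/fl-MI 2 and CKO-MI 1, with 4 genes higher and 5 lower. Of 10 macrophage markers 4 rose (sums of 492 to 556 CPM in sham and 473 to 1201 in MI), and all 5 erythroid genes rose (79.7 to 551 and 272 to 753 CPM). None of the 7 adipocyte markers tested was called (132 to 193 and 102 to 406 CPM), and Ucp1, the marker of brown fat, did not pass the filter. The 7 atrial genes tested summed to 183 to 634 CPM in sham and 2577 to 20211 CPM in MI, where only Nppa was called, and Bmp10, Myl4, Myl7 and Sln were high only in fl/fl-MI 2 as labelled. Of 7 hepatocyte genes, 2 passed the filter and none was called (14.9 to 42.8 and 14.4 to 79.7 CPM). In bulk tissue, fewer cells of a type and less RNA per cell cannot be told apart.

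After MI, 5 of the 6 regulators among the members were higher, Cd36, Etfb and several other genes were lower, and most enzymes of the spiral were not called. With both labelled genotypes averaged, 7 of the 40 genes rose and 8 fell at an adjusted p under 0.05 (edgeR's quasi-likelihood test, Benjamini-Hochberg over all 14028 genes), where 22.0% of all genes rose and 18.3% fell. The genes that rose were Pdk4, Ppara, Esrrg, Ppargc1a, Ppargc1b, Acsl1 and Rxra. Those that fell were Etfb, Eci1, Acot1, Acaa2, Acot13, Cd36, Mlycd and Fabp3. The 17.5% of members called higher and 20% called lower lie near the shares of all genes. The median log2 fold change of the 40 genes was -0.095, beside 0.035 over all genes tested. All 4 MI libraries lay above all 4 sham libraries for 6 members and below them for 10, while 20.9% of all genes were separated upward and 19.5% downward. Such a separation of 4 against 4 libraries fixes the exact two-sided permutation p of each of these 16 genes at 0.0286, the smallest value the design allows, so this p adds nothing to the counts.

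These directions rest on a normalization (TMM) that leaves the median of all genes near 0. Scaling to the total count, in which mitochondrially encoded genes take a smaller share after MI, moved that median to 0.59, and the authors' FPKM moved it to 0.41. On these scales 22 and 21 members were called higher and 3 lower, and the share of all genes called is not given here. Fabp3 and Mlycd changed direction there, with log2 fold changes of 0.09 and 0.067 in limma on log2(FPKM + 1), and the fall of Cd36 was -0.26 with adjusted p = 0.129 in limma. Changes are therefore relative to the median gene.

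**Figure D1:**
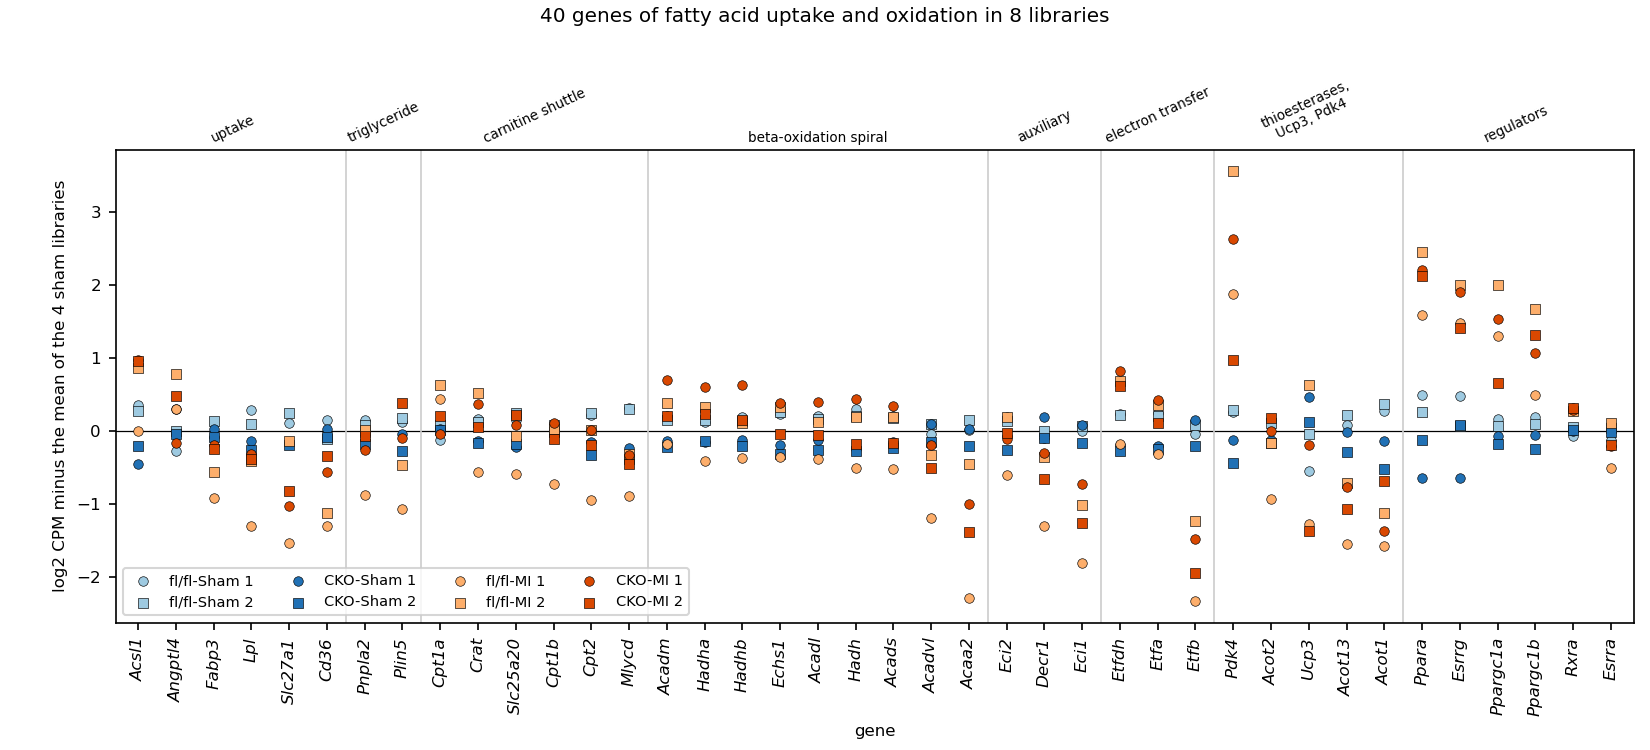
Level of each of the 40 genes in each of the 8 libraries, as log2 CPM minus the mean of the 4 sham libraries (y axis), with genes grouped by role (x axis). Circles are replicate 1 and squares replicate 2 of the labelled group, light and dark blue are fl/fl-Sham and CKO-Sham, and light and dark orange are fl/fl-MI and CKO-MI. The library labelled fl/fl-MI 1 is the lowest of the 8 for most genes outside the regulators, and all 4 MI libraries are above all sham libraries for Pdk4, Ppara, Esrrg, Ppargc1a, Ppargc1b and Rxra.

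**Figure D2:**
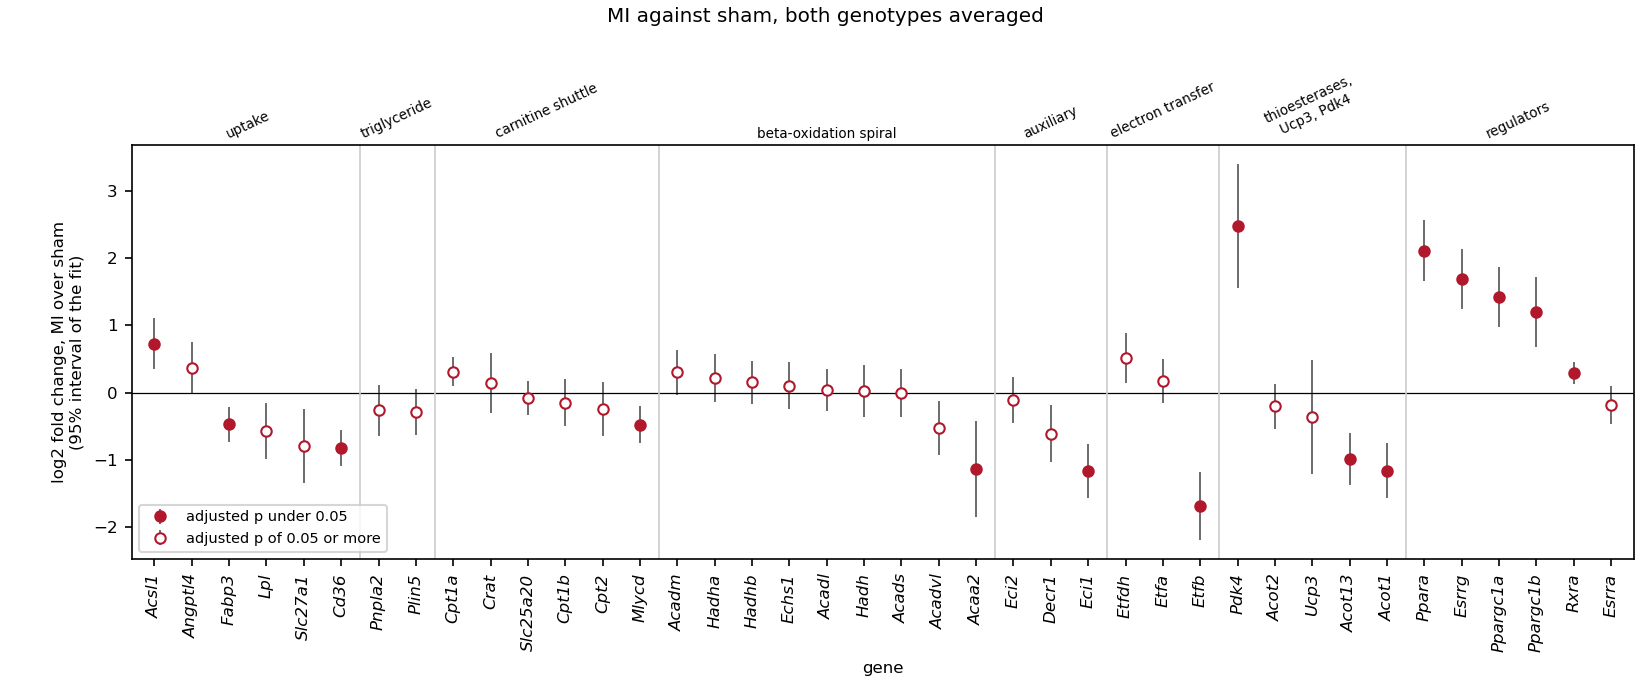
Log2 fold change of MI over sham with both labelled genotypes averaged (y axis, points) for the 40 genes by role (x axis). Bars are approximate 95% intervals from the standard error and the normal distribution, narrower than the test implies. Filled points passed an adjusted p under 0.05. The largest rise is Pdk4 at 2.48 and the largest fall is Etfb at -1.68.

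Of the 6 transcription factors and coactivators, 5 rose and none fell. Ppara (ENSMUSG00000022383, chromosome 15 from 85734983 to 85802819 of GRCm38), which encodes the fatty acid receptor PPARα, had 5.12 and 4.38 CPM in fl/fl-Sham and 2.34 and 3.36 in CKO-Sham, and 10.97 and 19.9 in fl/fl-MI and 16.7 and 15.9 in CKO-MI. Every MI library was above every sham library, and the log2 fold change came to 2.11 (standard error 0.23, adjusted p = 0.00114), a 4.32-fold rise. Esrrg, the estrogen-related receptor γ, had 13.2 and 10.002 CPM in fl/fl-Sham and 6.10 and 10.03 in CKO-Sham, and 26.4 and 37.9 in fl/fl-MI and 35.4 and 25.2 in CKO-MI. The MI libraries again lay above all sham libraries, with a change of 1.69 (standard error 0.23, adjusted p = 0.00209). Ppargc1a, the coactivator PGC-1α, had 31.1 and 29.01 CPM in fl/fl-Sham and 26.4 and 24.4 in CKO-Sham, and 68.2 and 109.8 in fl/fl-MI and 79.8 and 43.6 in CKO-MI. Its change of 1.42 (standard error 0.23, adjusted p = 0.00396) came without overlap, although the library labelled CKO-MI 2 stood closer to the sham level than the other MI libraries. Ppargc1b, which encodes PGC-1β, had 4.84 and 4.53 CPM in fl/fl-Sham and 4.10 and 3.57 in CKO-Sham, and 5.94 and 13.5 in fl/fl-MI and 8.87 and 10.5 in CKO-MI. It changed by 1.19 (standard error 0.27, adjusted p = 0.0122), and lost its call when the library labelled fl/fl-Sham 2 or that labelled CKO-Sham 2 was left out (range 0.84 to 1.41). Rxra, the partner of PPARα on DNA, rose least, from 39.5 to 42.7 CPM in sham to 49.7 to 51.4 CPM in MI (0.30, standard error 0.083, adjusted p = 0.0273), and kept its call in only 2 of the 8 fits that leave out a library. Esrra, which encodes the estrogen-related receptor α and had the highest mean FPKM of these regulators, had 58.9 and 65.8 CPM in fl/fl-Sham and 68.2 and 63.1 in CKO-Sham, and 45.1 and 69.1 in fl/fl-MI and 55.5 and 55.9 in CKO-MI. The groups overlapped, and its change of -0.18 (standard error 0.15, adjusted p = 0.35) did not pass, with an approximate 95% interval of -0.47 to 0.10. The 95% intervals here and below take the normal distribution, and so are narrower than the quasi-likelihood test implies. Ppara, Esrrg and Ppargc1a remained called whichever library was left out.

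Among the 5 genes that divert or brake oxidation, Pdk4 showed the largest rise of all members. Pdk4 (ENSMUSG00000019577, chromosome 6 from 5483351 to 5496309) encodes a kinase that switches off pyruvate dehydrogenase and so limits the use of glucose, and it had 123 and 125 CPM in fl/fl-Sham and 94.7 and 75.98 in CKO-Sham, and 376 and 1201 in fl/fl-MI and 633 and 202 in CKO-MI. All MI libraries were above the sham libraries, but that labelled fl/fl-MI 2 was far above that labelled CKO-MI 2, and the log2 fold change of 2.48 (standard error 0.47, adjusted p = 0.00688) ranged from 1.93 to 2.77 with a library left out. Acot1, a cytosolic enzyme that cleaves acyl-CoA, had 14.8 and 15.8 CPM in fl/fl-Sham and 11.1 and 8.52 in CKO-Sham, and 4.10 and 5.62 in fl/fl-MI and 4.75 and 7.63 in CKO-MI. It fell by 1.16 on the log2 scale (standard error 0.21, adjusted p = 0.00565) without overlap between MI and sham. Acot2, its mitochondrial paralog, had a log2 fold change of -0.20 (standard error 0.17, adjusted p = 0.375). These neighbours on chromosome 12 are near-identical in sequence, so how reads were split between them is uncertain. Acot13, a mitochondrial thioesterase, fell from 90.2 to 128 CPM in sham to 38.003 to 67.8 CPM in MI (-0.99, standard error 0.20, adjusted p = 0.00822). Ucp3, the uncoupling protein of muscle, was highest in fl/fl-MI 2, at 30.8 CPM, with 7.72 to 17.4 in the other MI libraries, around sham levels of 13.7 to 27.4 CPM (-0.36, standard error 0.43, adjusted p = 0.537). Of the group, 1 gene rose and 2 fell.

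At the entry of fatty acids into the cell, Cd36 and Fabp3 fell and Acsl1 rose. Cd36 (ENSMUSG00000002944, chromosome 5 from 17781690 to 17888801), the main fatty acid translocase of the sarcolemma, had 1817 and 1526 CPM in fl/fl-Sham and 1679 and 1558 in CKO-Sham, and 670.2 and 754 in fl/fl-MI and 1115 and 1298 in CKO-MI. The groups did not overlap, and the change was -0.83 (standard error 0.14, adjusted p = 0.0042), or 0.564-fold. Fabp3, the heart fatty acid binding protein and the most abundant member by FPKM (mean 979 in sham and 1056 in MI), had 953 and 1113 CPM in fl/fl-Sham and 1031 and 951 in CKO-Sham, and 538 and 686 in fl/fl-MI and 888 and 851 in CKO-MI. Its change of -0.47 (standard error 0.14, adjusted p = 0.0297) was called in only 2 of the 8 fits that leave out a library. Lpl, the lipase that frees fatty acids at the capillary wall, had 2919 and 2566 CPM in fl/fl-Sham and 2192 and 2006 in CKO-Sham, and 979 and 1814 in fl/fl-MI and 1931 and 1835 in CKO-MI. All MI libraries were below all sham libraries, yet the change of -0.56 (standard error 0.21, adjusted p = 0.07) did not pass. Slc27a1, the transport protein FATP1, had 161 and 176 CPM in fl/fl-Sham and 132 and 130.3 in CKO-Sham, and 51.4 and 135 in fl/fl-MI and 73.4 and 84.6 in CKO-MI. The fit gave -0.79 (standard error 0.28, adjusted p = 0.0577) on the log2 scale, and fl/fl-MI 2 lay among the sham libraries. With fl/fl-MI 2 left out, Lpl at -0.82 (adjusted p = 0.00224, edgeR) and Slc27a1 at -1.22 (adjusted p = 0.000165) did pass, and with fl/fl-MI 1 left out they passed as well at -0.39 and -0.54. Acsl1 (ENSMUSG00000018796, chromosome 8 from 46471037 to 46536051), the acyl-CoA synthetase that activates fatty acids, had 319.6 and 303 CPM in fl/fl-Sham and 183 and 217 in CKO-Sham, and 249 and 454 in fl/fl-MI and 491 and 484 in CKO-MI. The library labelled fl/fl-MI 1 lay among the sham libraries and the other MI libraries lay above all of them. The change of 0.73 (standard error 0.20, adjusted p = 0.0235) lost its call in 6 of the 8 fits that leave out a library. Angptl4, an inhibitor of Lpl, had 13.01 to 19.4 CPM in sham and 14.05 to 26.9 in MI (0.37, standard error 0.19, adjusted p = 0.171). Cd36 is also used by endothelial cells, whose markers fell in the same libraries, and the part of that cell type in the levels of this group was not tested.

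The listed shares of transcripts also differed after MI, in Acsl1 and Cd36 among others. The authors' table lists 199 transcripts of the members, and 37 of the 40 genes have more than 1. Their FPKM are estimates that divide reads shared between transcripts, and the shares below are descriptions without a test. Of the 199, 15 transcripts in 9 genes (Acsl1, Cd36, Acadvl, Etfdh, Eci2, Esrra, Esrrg, Ppargc1a and Ucp3) differed in mean share by over 5 percentage points with no overlap between MI and sham. The same share over all transcripts of the series is not given here, so this count is not read as particular to the members. That of Esrrg, ENSMUST00000152927, was near the floor, at 0.081 to 0.113 FPKM in sham and 0 to 0.061 FPKM in MI. The main transcript of Acadvl made up 98.1% to 98.8% in sham. After MI it made up 48.6% in fl/fl-MI 1 and 48.1% in CKO-MI 1, but 96.7% in fl/fl-MI 2 and 97.7% in CKO-MI 2. That of Etfdh made up 98.8% to 99.4% in sham, 98.2% and 95.9% in fl/fl-MI, and 60.6% and 58.8% in CKO-MI. Acsl1 and Cd36 are described further, a choice made after their values were seen. Acsl1 has annotated starts at position 46471037 and farther downstream at 46490966 of chromosome 8. Transcript ENSMUST00000034046, from the upstream start, made up 97.4% to 98.9% of the gene's summed FPKM in sham and 68.1% to 82.4% after MI. Transcript ENSMUST00000110372, from the downstream start, was listed at 0 in 3 of the sham libraries and at 0.0249% in CKO-Sham 2, and made up 16.2% and 26.6% in fl/fl-MI and 19.5% and 30.6% in CKO-MI. It was present in all 4 MI libraries, including that labelled fl/fl-MI 1, in which the gene's CPM lay within the sham range.

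Cd36, on the minus strand of chromosome 5, had a smaller share after MI from its starts near position 17835717 and a larger share from starts farther upstream. Transcript ENSMUST00000197890 made up 47.3% to 57.7% in sham and 21.1% to 38.04% in MI, and ENSMUST00000082367, which starts at 17835696, 10.4% to 16.1% and 6.34% to 7.68%. Transcript ENSMUST00000165232, which starts at 17849729, made up 3.10% to 7.95% in sham and 15.9% to 26.02% in MI. Transcript ENSMUST00000169095, which starts at 17888747, made up 0.302% to 2.18% and 6.67% to 11.1%, and the short ENSMUST00000197574 from the same region 0.225% to 0.527% and 4.54% to 9.22%. In each of these 5 transcripts the MI and sham libraries did not overlap. A further transcript, ENSMUST00000170051, from position 17849792, had 25.7% to 29.96% and 19.8% to 31.6%, with overlap. Endothelial and other cells of the tissue also use Cd36, and which cells gave each transcript was not tested.

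**Figure D3:**
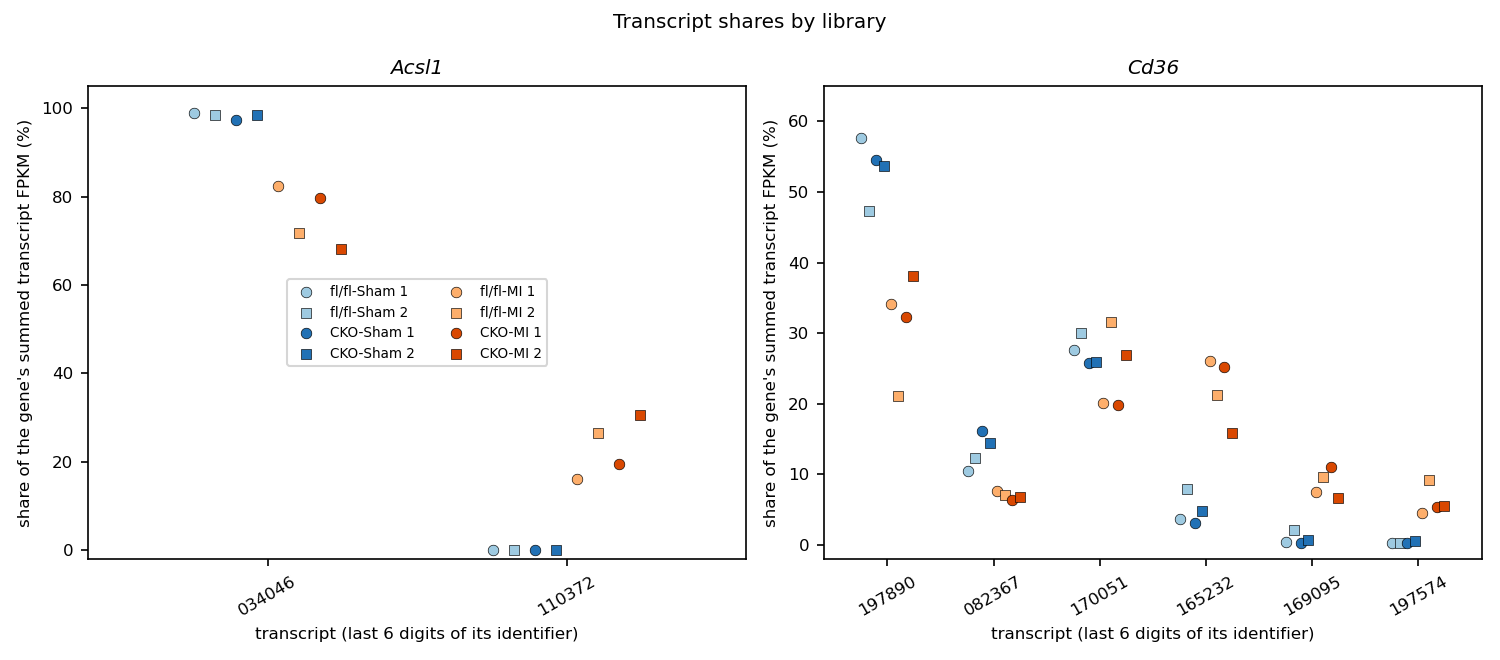
Share of the gene's summed transcript FPKM in percent (y axis) for 2 transcripts of Acsl1 and 6 of Cd36 (x axis, last 6 digits of the Ensembl identifier) in each of the 8 libraries, with symbols as for the levels by library. ENSMUST00000110372 of Acsl1 is at or near 0 in all sham libraries and between 16.2% and 30.6% in the MI libraries.

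The 250 bases before annotated starts are shown for the genes where a start changed its share (both starts of Acsl1, and Cd36), for the member with the largest rise (Pdk4) and for the member of the spiral that holds a longer motif match (Acadm). Sequences are from RefSeq on GRCm38.p6, read 5′ to 3′ on the strand of the gene, and capitals mark AGGTCA, the core site bound by PPAR, RXR and estrogen-related receptors, on either strand.
Acsl1, upstream start, chr8:46470787-46471036, plus strand: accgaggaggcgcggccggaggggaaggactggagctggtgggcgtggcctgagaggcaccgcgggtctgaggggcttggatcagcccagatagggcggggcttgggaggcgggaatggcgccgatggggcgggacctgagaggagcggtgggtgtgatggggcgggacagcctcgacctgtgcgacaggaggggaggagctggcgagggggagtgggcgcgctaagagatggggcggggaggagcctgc
Acsl1, downstream start, chr8:46490716-46490965, plus strand: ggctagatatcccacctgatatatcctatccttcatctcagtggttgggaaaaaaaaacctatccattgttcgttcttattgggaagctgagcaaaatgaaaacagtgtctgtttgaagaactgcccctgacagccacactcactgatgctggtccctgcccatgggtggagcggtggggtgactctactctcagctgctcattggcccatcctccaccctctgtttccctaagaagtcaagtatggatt
Cd36, chr5:17835897-17836146, minus strand: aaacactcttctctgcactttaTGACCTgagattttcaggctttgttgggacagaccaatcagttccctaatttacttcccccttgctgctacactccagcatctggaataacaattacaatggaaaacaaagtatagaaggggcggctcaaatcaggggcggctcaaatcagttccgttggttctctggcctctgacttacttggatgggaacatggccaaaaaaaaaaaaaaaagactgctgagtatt
Pdk4, chr6:5496279-5496528, minus strand: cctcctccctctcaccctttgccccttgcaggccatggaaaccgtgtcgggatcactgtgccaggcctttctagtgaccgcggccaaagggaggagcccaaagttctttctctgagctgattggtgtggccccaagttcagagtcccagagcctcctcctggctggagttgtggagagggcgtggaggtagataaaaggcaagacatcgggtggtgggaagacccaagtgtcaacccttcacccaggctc
Acadm, chr3:153944644-153944893, minus strand: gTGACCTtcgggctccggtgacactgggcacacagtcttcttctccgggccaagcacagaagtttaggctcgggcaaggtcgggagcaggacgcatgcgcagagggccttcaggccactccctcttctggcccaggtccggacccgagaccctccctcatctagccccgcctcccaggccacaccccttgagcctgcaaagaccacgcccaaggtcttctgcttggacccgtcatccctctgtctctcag

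The windows before the Acsl1 starts differed in base composition, with 72.0% G and C before the upstream start and 48.4% before the downstream start, beside 43.2% for Cd36. The Cd36 window belongs to a start at position 17835896, near the starts with a smaller share after MI. RefSeq windows of 300 bases, from 250 before to 50 after a start, were found for 32 of the 40 genes. AGGTCA was present on either strand in those of 8 genes (Cd36, Plin5, Cpt1a, Acadvl, Acadm, Echs1, Ucp3 and Rxra), in 22.5% of the members' 40 windows and 16.3% of all 32851. AAGGTCA, which contains it, was present in the windows of Acadm and Rxra (5.00% of the members' windows and 4.72% of all). The full estrogen-related receptor element TCAAGGTCA and the direct repeat AGGTCANAGGTCA, found in 0.423% and 0.0396% of all windows, were in no window of a member. A match describes letters only. Of the 8 genes with AGGTCA, Rxra rose, Cd36 fell and the other 6 were not called.

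Both genes of stored triglyceride were without a call. Pnpla2, the adipose triglyceride lipase, had 241 and 230.5 CPM in fl/fl-Sham and 208 and 193 in CKO-Sham, and 119 and 220.5 in fl/fl-MI and 181 and 208 in CKO-MI (-0.26, standard error 0.19, adjusted p = 0.318). Plin5, a lipid droplet protein of oxidative tissue, had 60.2 and 62.2 CPM in fl/fl-Sham and 53.6 and 45.8 in CKO-Sham, and 26.3 and 39.98 in fl/fl-MI and 51.7 and 72.1 in CKO-MI (-0.28, standard error 0.17, adjusted p = 0.223). In both genes the library labelled fl/fl-MI 1 was the lowest of the 8 and the other MI libraries overlapped the sham libraries or lay close to them.

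In the carnitine shuttle, only Mlycd was called. Mlycd, malonyl-CoA decarboxylase, removes the inhibitor of carnitine palmitoyltransferase 1, and had 69.4 and 68.97 CPM in fl/fl-Sham and 47.7 and 42.8 in CKO-Sham, and 30.3 and 45.1 in fl/fl-MI and 44.5 and 41.1 in CKO-MI. Its change of -0.48 (standard error 0.14, adjusted p = 0.0319) was called in 2 of the 8 fits that leave out a library, and its MI levels overlapped those of CKO-Sham. Cpt1b, the muscle form of carnitine palmitoyltransferase 1 and the gate of mitochondrial entry, was the most abundant gene of the shuttle by FPKM (mean 98.4 in sham and 131 in MI). It had 412 and 443 CPM in fl/fl-Sham and 401 and 413 in CKO-Sham, and 252 and 425 in fl/fl-MI and 451 and 385 in CKO-MI, and outside the library labelled fl/fl-MI 1 the MI values lay within or just above and below the sham range (-0.15, standard error 0.18, adjusted p = 0.536, 95% interval -0.50 to 0.20). Its exons overlap those of Gm44502 on the same strand, so its count is uncertain. Cpt1a, the liver form, had 49.6 and 57.1 CPM in fl/fl-Sham and 54.8 and 54.3 in CKO-Sham, and 73.1 and 83.7 in fl/fl-MI and 52.4 and 62.1 in CKO-MI (0.31, standard error 0.11, adjusted p = 0.0544). Slc25a20, the carnitine-acylcarnitine carrier, Cpt2, which returns the acyl group to CoA, and Crat, carnitine acetyltransferase, had log2 fold changes of -0.076, -0.24 and 0.15 (adjusted p = 0.669, 0.376 and 0.628, edgeR).

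The spiral itself held 9 genes, of which 1 fell and none rose, with a median log2 fold change of 0.041. Acaa2, the thiolase for medium and short chains, had 489.7 and 538 CPM in fl/fl-Sham and 492 and 418 in CKO-Sham, and 99.7 and 355 in fl/fl-MI and 242 and 185 in CKO-MI. It lay lower in every MI library than in any sham library, with a change of -1.13 (standard error 0.36, adjusted p = 0.0431), and it was called in 2 of the 8 fits that leave out a library. Acadvl, the very long chain acyl-CoA dehydrogenase, had 553 and 609 CPM in fl/fl-Sham and 607 and 513 in CKO-Sham, and 249 and 453 in fl/fl-MI and 500.1 and 401 in CKO-MI. The groups did not overlap, but the change of -0.52 (standard error 0.21, adjusted p = 0.0822) did not pass. Acadl, the long chain acyl-CoA dehydrogenase, had the highest FPKM of the spiral averaged over the 8 libraries (175 in sham and 262 in MI), although Acaa2 was above it in sham (255 in sham and 167 in MI). Acadl had 505 and 488 CPM in fl/fl-Sham and 401 and 366 in CKO-Sham, and 335 and 475 in fl/fl-MI and 574 and 422 in CKO-MI. Its levels after MI straddled those of sham, with a change of 0.041 (standard error 0.16, adjusted p = 0.855) and a 95% interval of -0.28 to 0.36. Acadm, the medium chain enzyme, had 444 and 426 CPM in fl/fl-Sham and 350.1 and 329.9 in CKO-Sham, and 341 and 501 in fl/fl-MI and 624 and 445 in CKO-MI (0.30, standard error 0.17, adjusted p = 0.196). Acads, the short chain enzyme, Echs1, the enoyl-CoA hydratase, Hadh, the short chain hydroxyacyl-CoA dehydrogenase, and Hadha and Hadhb, both subunits of the trifunctional protein, had log2 fold changes of -0.0012 (95% interval -0.36 to 0.36), 0.10, 0.027, 0.22 and 0.15, with adjusted p from 0.376 to 0.996 (edgeR). On the authors' FPKM in limma, where the median of all genes is itself above 0 as given above, Acadl, Acadm, Acads, Echs1, Hadha, Hadhb and Hadh were all called higher, by 0.52 to 0.84.

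The auxiliary enzymes and electron transfer genes held the steepest falls. Etfb (ENSMUSG00000004610, chromosome 7 from 43444083 to 43457800) encodes the β subunit of the electron transfer flavoprotein and had 455 and 494 CPM in fl/fl-Sham and 516 and 406 in CKO-Sham, and 93.2 and 199.7 in fl/fl-MI and 168 and 122 in CKO-MI. No MI library reached the sham range, and the change was -1.68 (standard error 0.26, adjusted p = 0.00329), a fall to 0.311 of the sham level. Its partner subunit Etfa had 245 and 238 CPM in fl/fl-Sham and 179 and 174 in CKO-Sham, and 166 and 265 in fl/fl-MI and 278 and 223 in CKO-MI and a log2 fold change of 0.17 (standard error 0.17, adjusted p = 0.441). Its MI and sham levels overlapped, while those of Etfb did not. Etfdh, the ubiquinone oxidoreductase that accepts their electrons, had 224 and 221 CPM in fl/fl-Sham and 166 and 158 in CKO-Sham, and 168 and 304 in fl/fl-MI and 336 and 290.5 in CKO-MI (0.52, standard error 0.19, adjusted p = 0.0649). Etfb overlaps the gene Gm45233 on the same strand, which makes its count uncertain. Gm45233 is absent from the deposited gene table, whereas Gm44502, which overlaps Cpt1b, is listed there. Eci1, an isomerase for unsaturated chains, had 138 and 145 CPM in fl/fl-Sham and 147 and 124 in CKO-Sham, and 39.9 and 68.6 in fl/fl-MI and 83.5 and 58.2 in CKO-MI and fell without overlap by 1.16 on the log2 scale (standard error 0.20, adjusted p = 0.00516). Decr1, the dienoyl-CoA reductase, had 200.1 and 213 CPM in fl/fl-Sham and 243 and 199.6 in CKO-Sham, and 87.03 and 167 in fl/fl-MI and 173 and 136 in CKO-MI. It was lower in every MI library than in any sham library but did not pass (-0.61, standard error 0.22, adjusted p = 0.0591). Eci2, the other isomerase, had a log2 fold change of -0.11 (standard error 0.17, adjusted p = 0.628). Etfb, Eci1, Acot1, Acot13 and Cd36 remained called lower, and Pdk4 called higher, whichever library was left out.

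The number of calls moved with single libraries, and fl/fl-MI 1 as labelled had the lowest median level of the members. Relative to the mean of the sham libraries, the median of the 40 genes was -0.57 (log2) in that library and 0.12, 0.0061 and -0.046 in those labelled fl/fl-MI 2, CKO-MI 1 and CKO-MI 2. The same library had the highest fibroblast sum (7234 CPM) and the lowest sarcomere sum. It was also the only MI library with low Esr1, at 7.75 CPM against 331 to 707 in the others. The part of cell makeup or of the transgene in its levels was not tested. The library labelled CKO-MI 2 had a fibroblast sum of 6042 CPM, the next lowest sarcomere sum and the median of -0.046 given above. Leaving out fl/fl-MI 1 gave 10 higher and 11 lower calls. Leaving out fl/fl-MI 2 as labelled, the one with atrial transcripts, gave 7 higher and 20 lower calls, with a median of -0.28. Leaving out any of the other 6 libraries gave 4 or 5 higher and 5 lower calls. When levels were scaled to the sarcomere list, 7 genes were called higher and 4 lower. Those 4 were Acaa2, Eci1, Etfb, and Acot13. The share of all genes called is not given for these fits, so their counts are not read as a result about the members. With the genotype labels ignored, an alternative added after the data had been seen, 7 genes were called higher and 8 lower in edgeR, with calls of Slc27a1 and Decr1 in place of Fabp3 (adjusted p = 0.0608) and Mlycd (adjusted p = 0.0633). The share of all genes called is not given for that alternative either.

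The change after MI was related to transcript length. Across the 40 genes, log2 fold change and length (weighted by the authors' transcript FPKM) had Spearman's rho = 0.51 and Pearson's r = 0.59 with log2 length, against rho = 0.25 over all 14028 genes and 0.71 over the 14 sarcomere genes. These are descriptions across genes that share the same 8 libraries, and genes are not independent replicates. Of the 6 members under 1500 bases, none rose and 4 fell (Fabp3, Eci1, Etfb and Acot13), where 7.60% of all genes of that length rose and 25.03% fell. Of the 22 members of 1500 to 3000 bases none rose and 4 fell, beside 20.8% and 16.8% of all genes of that length. Of the 9 members of 3000 to 4500 bases 4 rose and none fell, beside 28.3% and 17.2%, and all 3 members over 4500 bases rose, beside 34.9% and 14.05%. The median of all genes went from -0.27 under 1500 bases to 0.25 over 4500 bases. Offsets that remove each library's trend on length, added after the data had been seen, left 6 members called higher and 7 lower. The share of all genes called with these offsets is not given here. Under them Etfb was -1.42 (adjusted p = 0.00444, edgeR), Eci1 -0.97 (adjusted p = 0.00745) and Ppara 2.04 (adjusted p = 0.00141), while Fabp3 at -0.20 (adjusted p = 0.229), Rxra at 0.14 (adjusted p = 0.232) and Acaa2 at -1.05 (adjusted p = 0.0521) lost their calls and Lpl at -0.69 (adjusted p = 0.0494) gained one.

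**Figure D4:**
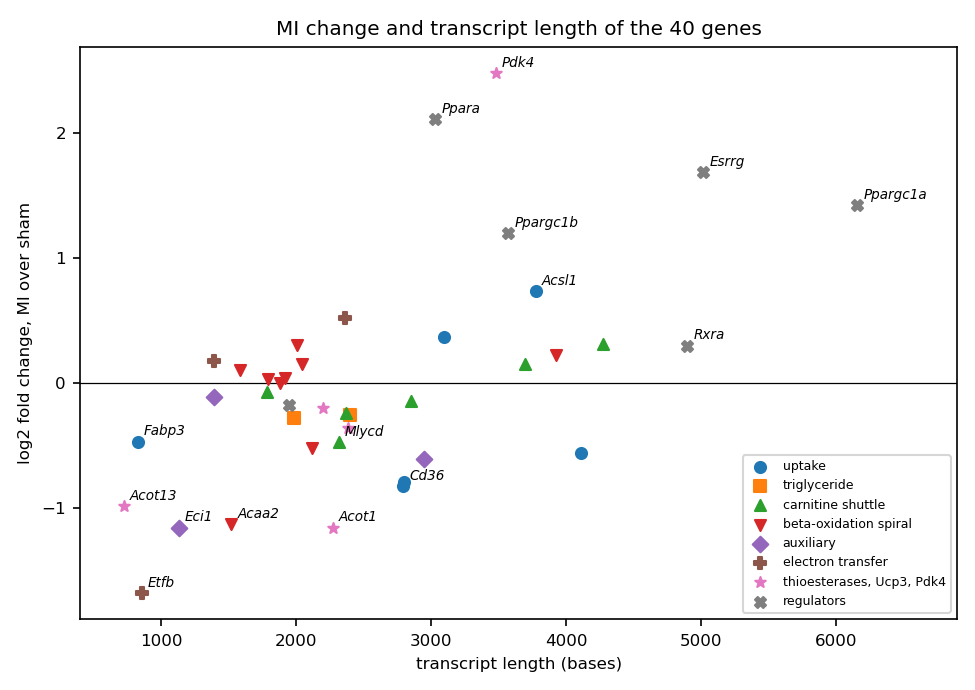
Log2 fold change of MI over sham (y axis) against transcript length in bases (x axis) for the 40 genes, with a symbol for each role and names for the 15 genes called at an adjusted p under 0.05. All members called lower are shorter than 3000 bases and all called higher are longer than 3000 bases.

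Other genes of lipid metabolism were described by 6 further lists of 134 genes, of which 121 passed the filter, 26 rose and 23 fell with a median of 0.091, beside 22.0% and 18.3% of all genes. Of 14 further genes of uptake, binding and activation, 3 rose and 4 fell. Gpihbp1, which anchors lipoprotein lipase on capillary endothelium, fell most (-2.11, standard error 0.26, adjusted p = 0.00157), followed by Fabp4, a binding protein of endothelium and fat (-1.87, standard error 0.18, adjusted p = 0.000747). Of 27 further genes of mitochondrial oxidation, 7 rose and 4 fell, with the largest changes among those called in Acad10 (-1.40, standard error 0.15, adjusted p = 0.00108) and Pdk3, another pyruvate dehydrogenase kinase (1.34, standard error 0.33, adjusted p = 0.0171). Of 19 genes of peroxisomal oxidation 4 rose and 3 fell, among them catalase, Cat (0.62, standard error 0.094, adjusted p = 0.0031), and Ehhadh, the peroxisomal bifunctional enzyme (-0.79, standard error 0.19, adjusted p = 0.0167). Of 15 genes of fatty acid synthesis and desaturation 1 rose and 3 fell, led by Thrsp (-1.60, standard error 0.34, adjusted p = 0.0106) and Mlxipl (-0.85, standard error 0.19, adjusted p = 0.0119), both lipogenic regulators. Of 23 genes of triglyceride and lipid droplets 3 rose and 5 fell, with the largest falls among those called in the lipases Lipe (-1.46, standard error 0.21, adjusted p = 0.00246) and Mgll (-1.40, standard error 0.13, adjusted p = 0.000733). Of 23 further nuclear receptors and regulators 8 rose and 4 fell. Pparg, the receptor PPARγ of fat and endothelium, fell (-1.82, standard error 0.19, adjusted p = 0.00106) and Prkaa2, the α2 subunit of AMP-activated kinase, rose (1.77, standard error 0.20, adjusted p = 0.00125). Several of these genes are used most by endothelial or fat cells, whose marker sums are given above, and the part of those cells was not tested. In the other comparisons these lists gave 9 genes higher and 13 lower for MI within fl/fl, 22 and 16 within CKO, and 0 calls between the genotypes or in the interaction.

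Whether MI acted alike in the labelled genotypes was asked next. In fl/fl-MI against fl/fl-Sham, 5 members rose and 8 fell (10.1% of all genes rose and 8.45% fell), with a median of -0.31. In CKO-MI against CKO-Sham, 7 rose and 1 fell (12.8% and 11.9% of all genes), with a median of 0.19. These counts depended on single libraries. The share of all genes called is not given for fits with a library left out, so only medians of the members are listed. In fl/fl the median was -0.059 without fl/fl-MI 1 and -0.76 without fl/fl-MI 2. It was -0.29 without fl/fl-Sham 1 and -0.32 without fl/fl-Sham 2. In all these fits the lone library of a group is taken to vary like the others. In CKO the median was 0.11 without CKO-MI 1 and 0.15 without CKO-MI 2. It was 0.25 without CKO-Sham 1 and 0.14 without CKO-Sham 2. The fl/fl-MI libraries enter the CKO contrast only through the shared estimate of spread and the scaling. Its median was 0.18 without fl/fl-MI 1 and 0.19 without fl/fl-MI 2. In fl/fl the median was -0.31 without either CKO-Sham library. With all libraries in the fit, the medians of all genes were 0.052 in fl/fl and 0.0083 in CKO. Each contrast has its own sham libraries. Ppara, Esrrg, Ppargc1a and Pdk4 were called higher and Etfb was called lower in both. Cd36 had a log2 fold change of -1.23 (standard error 0.19, adjusted p = 0.00979) in fl/fl and -0.42 (standard error 0.19, adjusted p = 0.145) in CKO. The values of Acsl1 were 0.18 (standard error 0.27, adjusted p = 0.677) in fl/fl and 1.28 (standard error 0.28, adjusted p = 0.0199) in CKO. Those of Plin5 were -0.89 (standard error 0.24, adjusted p = 0.0474) and 0.32 (standard error 0.24, adjusted p = 0.369), and those of Mlycd -0.88 (standard error 0.20, adjusted p = 0.0277) and -0.08 (standard error 0.20, adjusted p = 0.791). A call in 1 genotype and not in the other does not show that the changes differ, which is tested below. Etfdh was called higher in CKO (0.95, standard error 0.27, adjusted p = 0.0421), beside 0.087 (standard error 0.27, adjusted p = 0.839) in fl/fl, and Cpt1a in fl/fl (0.55, standard error 0.15, adjusted p = 0.0469), beside 0.07 (standard error 0.15, adjusted p = 0.761) in CKO.

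The difference between these changes, tested as an interaction, was not called for any member, with a smallest adjusted p of 0.574 in edgeR, with 0% of all genes called. At p under 0.05 without adjustment there were 8 members, all with a more positive change in CKO, where 8.49% of all genes passed. They were Plin5 (1.20), Acsl1 (1.11), Acot1 (0.99), Acot2 (0.88), Hadhb (0.85), Slc25a20 (0.85), Cd36 (0.81) and Mlycd (0.80). The sign was positive for 33 of the 40 genes, with a median of 0.51 beside -0.017 over all genes. Without the library labelled fl/fl-MI 1 that median was 0.27, and without that labelled fl/fl-MI 2 it was 0.98.

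**Figure D5:**
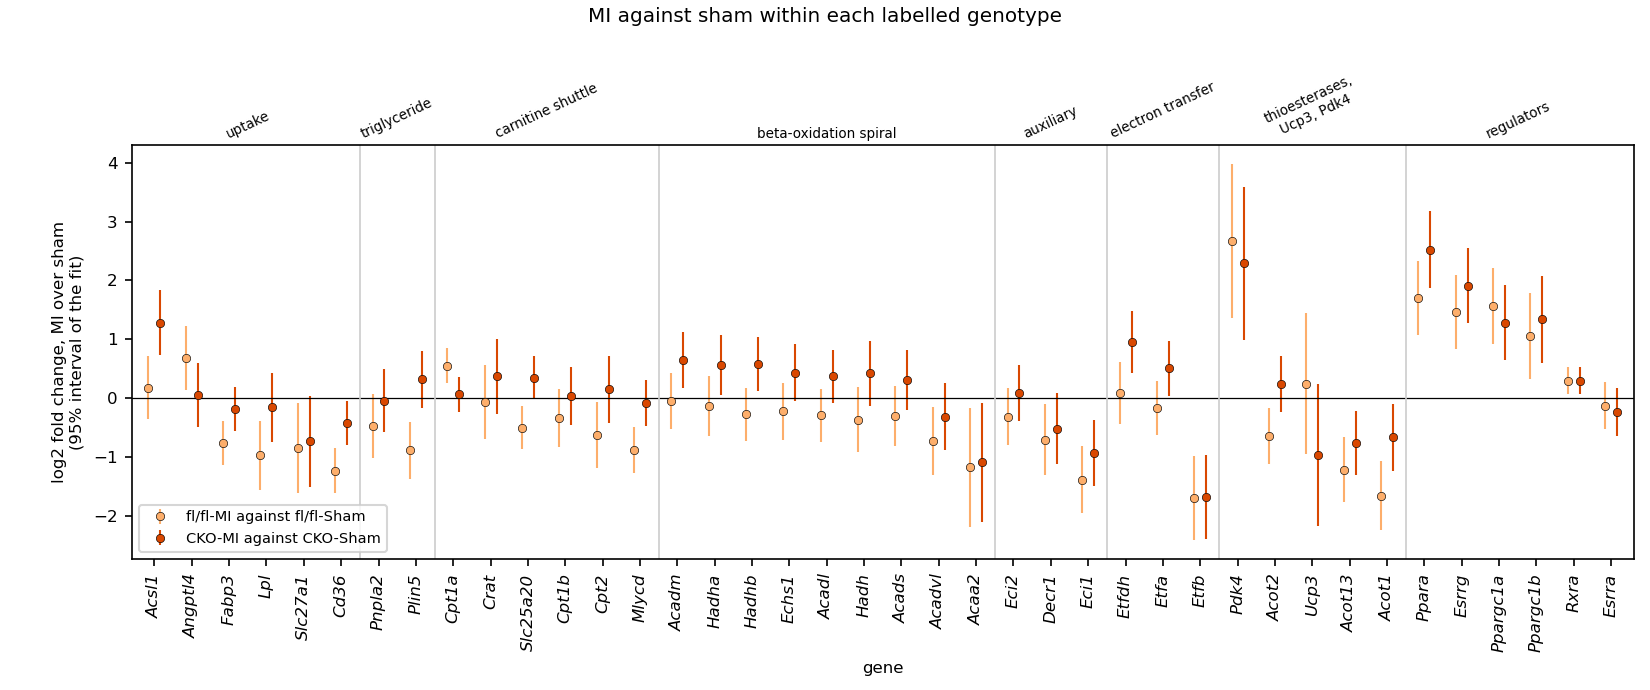
Log2 fold change of MI over sham (y axis, points) for the 40 genes (x axis), in the libraries labelled fl/fl (light) and CKO (dark), each against its own sham libraries. Bars are approximate 95% intervals from the standard error and the normal distribution, narrower than the test implies. The CKO point is above the fl/fl point for 33 of the 40 genes, and no difference passed an adjusted p under 0.05.

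Between the labelled genotypes after MI, no member (0 of 40) and 0% of all genes passed an adjusted p under 0.05 in edgeR. At an unadjusted p under 0.05, 5 members were higher and 1 was lower in CKO-MI, and 8.31% of all genes passed. Cd36 was higher in CKO-MI by 0.76 (standard error 0.19, adjusted p = 0.502), and this was the only member called by DESeq2, at adjusted p = 0.00322. Plin5 was higher by 0.90, Acot2 by 0.59, Fabp3 by 0.51 and Slc25a20 by 0.46, and Cpt1a differed by -0.45, with adjusted p of 0.543 to 0.582 in edgeR. Both CKO-MI libraries lay above both fl/fl-MI libraries for 8 members, where 14.5% of all genes did. The median of the 40 genes was 0.23, and it became -0.06 with fl/fl-MI 1 left out and 0.66 without that labelled fl/fl-MI 2. Cd36 kept its direction in each of these fits (0.68 to 0.88). Without the library labelled fl/fl-MI 1, Slc27a1 was called lower in CKO-MI (-0.76, adjusted p = 0.0214, edgeR).

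In the sham libraries the members leaned lower in those labelled CKO. No member was called in CKO-Sham against fl/fl-Sham, where 0.00713% of all genes, a single gene, passed an adjusted p under 0.05 in edgeR. At an unadjusted p under 0.05 only Mlycd passed (-0.61, standard error 0.20, adjusted p = 1 in edgeR), against 3.89% of all genes. The sign was negative for 34 of the 40 genes, and both CKO-Sham libraries were below both fl/fl-Sham libraries for 26 of them (65%), where 23.8% of all genes were. The median was -0.30, between -0.37 and -0.27 with a library left out, beside 0.0043 over all genes. Markers of red blood cells moved with this lean: the 5 erythroid genes summed to 551 and 201 CPM in fl/fl-Sham and 79.7 and 109 CPM in CKO-Sham, with a median of -2.05 and none called, and their part in the lean was not tested. The 14 sarcomere genes had a median of -0.076 in the same contrast. The members share the same 4 libraries, so that a difference of a single library enters all of them. Hadh had 234 and 218 CPM in fl/fl-Sham and 159.9 and 156 in CKO-Sham. Fitted on the 4 sham libraries alone, 4 members were called lower in CKO-Sham, namely Acsl1 (-0.64), Mlycd (-0.62), Hadh (-0.52) and Echs1 (-0.50). The share of all genes called in that fit is not given here, and the 0.00713% above belongs to the fit of all libraries. These libraries did not differ in Esr1 or Piezo1 in the direction of their labels, as given above.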

How the data were processed

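Poly(A) RNA from mouse myocardium was sequenced in pairs of reads in 8 libraries, and reads were trimmed with cutadapt 1.9 and inspected with FastQC per the labels. The aligner, counter and annotation are not given in the sources used here. The deposited gene and transcript tables hold whole-number counts and the authors' FPKM, values per kilobase and per sequencing depth that include the mitochondrially encoded genes. Counts were fitted as deposited with edgeR 4.0.16 (R 4.3.3), with TMM scaling, the quasi-likelihood test and 1 model of 4 groups, for 14028 genes averaging 0.5 FPKM or more. Groups were taken from the labels. Benjamini-Hochberg adjustment covered all genes tested, and a call is an adjusted p under 0.05. Alternatives used DESeq2 1.42.0, limma 3.58.1 on log2(FPKM + 1) and log2(FPKM + 0.1), other scalings, filters and libraries left out. The procedure was tested on simulated data. Exact tests used SciPy 1.17.1. Depth was 73821747 to 88117573 counts per library. The 40 genes, the gene lists and the tests were chosen with earlier results of these data known. All 40 genes were described by role, with values by library for the largest changes and the most abundant gene of each role, and at most 2 genes were named for each further list. Gene positions are on GRCm38, where 35 of the 40 genes matched GENCODE M21 coordinates exactly. RefSeq promoter entries were not used here for Lpl, Angptl4, Cpt1b, Crat, Acaa2, Decr1, Acot13 and Ppargc1b.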

Additional observations from a re-analysis of the deposited data

Results flagged for a closer look

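In 2 of 80 sets of 4 libraries (each gene in the sham and in the MI libraries), a library stood apart from the other 3 by more than Dixon's 95% critical value, which chance exceeds in about 1 of 20 sets. Lpl was at 979 CPM in library fl/fl-MI 1 as labelled, against 1814 to 1931 CPM in the other MI libraries, with a gap of 0.877 of the range. Acsl1 had 249 CPM in the same library against 454 to 491 CPM in the others, with a gap of 0.850 of the range.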

How the results depend on the processing

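For MI against sham with both genotypes averaged, members called higher and lower numbered 22 and 3 with the total count as library size, and 21 and 3 in limma on either log2(FPKM + 1) or log2(FPKM + 0.1). The lower calls numbered 4 when scaled to the sarcomere list and 4 at an unadjusted p under 0.05 with a 2-fold change, and 3 genes were called higher among the 36 members with a mean FPKM of at least 5. Fabp3 reversed to 0.077, 0.090 and 0.090, and Mlycd to 0.068, 0.067 and 0.072, with the total count, log2(FPKM + 1) and log2(FPKM + 0.1), scales on which the median of all genes rose to 0.59, 0.41 and 0.56. With a library left out, 4 to 10 members were higher and 5 to 20 lower. In fl/fl-MI against fl/fl-Sham the counts were 9 and 5 with the total count, 8 and 5 or 9 and 5 on the FPKM scales, 1 lower when scaled to the sarcomere list, 2 higher at a mean FPKM of at least 5, 5 lower at the unadjusted p with 2-fold change, 0 and 0 in a fit of the 4 libraries compared, and 0 to 6 and 0 to 22 with a library left out. In CKO-MI against CKO-Sham, 21 were higher with the total count and 21 or 22 on the FPKM scales, 2 were lower with the total count without mitochondrially encoded genes, 4 lower in DESeq2, 4 higher and 3 lower at a mean FPKM of at least 5, 5 lower in a fit of the libraries compared, 3 higher with length-adjusted and 4 higher with length- and GC-adjusted offsets, and 0 to 12 and 0 to 6 with a library left out. In CKO-MI against fl/fl-MI, DESeq2 called 1 gene higher, and leaving out a library gave 0 higher and 0 to 1 lower. In CKO-Sham against fl/fl-Sham, 4 were lower in a fit of the sham libraries alone, and leaving out a library gave 0. In the interaction, 2 were positive at the unadjusted p with 2-fold change, and leaving out a library gave 0. The cause of these shifts was not tested, also where a filter or fit removes genes or libraries. Differences between replicates 1 and 2, taken across genes, had correlations of -0.21 to 0.055 between groups. With a single such difference in each group, this cannot show whether the numbers pair the libraries. With the replicate number as a block, 7 members were higher and 6 lower for MI against sham, 2 and 4 in fl/fl, and 3 higher in CKO. With 2 libraries a group, small changes are within the spread of libraries. The share of all genes called is not given for the settings of this section, so the counts are not set beside it.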
